A study of Homo sapiens with 24 samples.

Results

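Caki-1 cells after 12 h of dasatinib were compared with Caki-1 cells given the solvent dimethyl sulfoxide (DMSO), with 3 arrays in each group, 6 of the 24 arrays of the study. The members were taken from the sample titles alone. Caki-1 is an established line from a metastasis of human clear cell renal carcinoma. The treated cells received 1 µM dasatinib. The study also treated this line for 6 h and 24 h, and 769-P, a line from a primary clear cell renal carcinoma, at the same times, with 3 arrays in each of 8 groups. Total RNA was hybridised to a 3′ expression array, and the deposited values were on a log2 scale. Each of 18132 genes was represented by 1 probe set, and 12423 genes were bright enough in Caki-1 to be tested. No duration was given for the DMSO arrays, so 1 DMSO group served for every time, and hours of drug and hours in culture cannot be told apart. The arrays of a group were labelled as biological replicates, with no statement that they came from separate cultures, so the p-values measure the spread between these samples only.

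Dasatinib blocks the SRC family of tyrosine kinases, which relay signals from adhesion sites and growth factor receptors, together with ABL, EPH and other kinases. Downstream lie the ERK cascade, the YAP and TEAD regulators of transcription, which respond to cytoskeletal tension, and the PI3K and AKT pathway, which keeps FOXO factors out of the nucleus. A cell that leaves the cycle lowers the genes of DNA replication that E2F factors control in late G1, later those of mitosis, and often the genes that build ribosomes, while genes of lysosomes and nutrient storage can rise.

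Of 11 markers of renal epithelial origin on the array, 9 lay above the brightness filter in both groups, PAX8, PAX2, CDH16, KRT8, KRT18, KRT19, VIM, ANPEP and CUBN, and MME and LRP2 lay below it. The summed log2 level of the renal markers was 92.3 to 93.3 in DMSO and 92.8 to 92.9 at 12 h. Within this sum PAX8, PAX2 and ANPEP rose by 0.57, 0.34 and 0.25, and KRT18 and KRT8 fell by 0.64 and 0.59. CDH16, KRT19, VIM and CUBN did not pass the test. Among markers of other cells, the leukocyte gene PTPRC and the endothelial genes CDH5 and TEK were below the filter. The sum over 7 leukocyte markers, 3 of them above the filter, was 35.2 to 35.9 and 34.7 to 35.7. Of these 3, CD68 rose by 0.37 from a DMSO mean of 8.0, CD14 fell by 0.81 and CD3E did not pass the test. Over 7 endothelial markers, 5 of them above it, the sum was 39.96 to 41.23 and 41.57 to 42.99. Of these 5, PECAM1 rose by 0.71, and VWF, TIE1, ESAM and EGFL7 did not pass the test. CD68, CD14 and PECAM1 are not in the counts of named genes below, and their calls under the alternatives are not given. The sum over 8 fibroblast and pericyte markers was 45.6 to 45.9 in DMSO and 51.0 to 52.4 at 12 h, with 4 and 6 of 8 above the filter and COL3A1 and THY1 below it. These arrays had medians of 6.009 to 6.059. Over all probe sets, replicate 1 at 12 h correlated with the other two arrays of its group at 0.9955 and 0.9954, they correlated with each other at 0.9975, and arrays of any group of the study at 0.9928 to 0.9975. Where leaving out this array changed a call, or moved a called value or a count by over 1.5 times, both values are given.

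After 12 h, 2991 genes were higher than in DMSO, 24.1% of those tested, and 3026 were lower, 24.4%, at an adjusted p under 0.05 (limma, Benjamini-Hochberg over 12423 genes). Counts of changed genes in the groups below are to be read against these percentages, and their medians against the median of all genes tested, 0.045 on the log2 scale. At least 2-fold differences were found for 336 higher and 425 lower genes, or 396 and 463 without replicate 1 and 200 and 279 with each gene as the mean of its probe sets. The median standard error of a difference was 0.10. Of the 210 genes named here as changed at 12 h that had several probe sets, 34 had probe sets on both sides of 0. Those of SHISA9 ran from −3.37 to 0.23, those of NOP16 from −2.04 to 0.07, those of AKR1C3 from −0.05 to 2.15 and those of PPARGC1A from −0.06 to 2.16. Probe sets that kept 1 sign could also spread widely. They ran from 0.23 to 4.84 for PDK4, 0.01 to 3.0 for FOXO1, 0.02 to 2.31 for CDH1 and 0.02 to 2.12 for GABARAPL1. In 140 of the 6017 changed genes 1 group mean lay below the filter level of 5.379, and a dim probe set gives no exact size. For such genes the size is also given as a lower bound, counted from the bright group only down to that level. Of the 15 named here these bounds were 0.29 for INSR, 0.59 for FGFR3, 0.67 for IL1A, 0.71 for SLC40A1, 1.01 for ISG20, 1.28 for CFI, 1.43 for DCN, 1.78 for CLSPN and 2.09 for LUM, and those of the other 6 stand beside their values.

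The falls included SHISA9, a membrane protein of the glutamate receptor complex in neurons. It stood at 8.16, 8.76 and 8.77 in the DMSO arrays and 5.31, 5.30 and 4.97 at 12 h, a change of -3.37 ± 0.19 (SE, n = 3 and 3; limma adjusted p = 5.2e-09), and at least 3.19 down to the filter level. FAM111B, a protease that peaks in S phase, went from 7.81, 8.02 and 8.01 to 5.35, 4.65 and 4.24, a change of -3.20 ± 0.21 (limma adjusted p = 2.6e-08), or at least 2.57, with replicate 1 the highest of the treated arrays. PTPRR, a phosphatase that acts on ERK, read 7.57, 7.79 and 7.68 in DMSO and 4.88, 5.08 and 4.70 after the drug, a change of -2.79 ± 0.16 (limma adjusted p = 8e-09), or at least 2.30. FLG, the precursor of filaggrin in the outer epidermis, changed by -2.83 ± 0.44 and MYEOV, a gene often overexpressed in tumours, by -2.73 ± 0.11. In none of these did a treated array reach the level of any DMSO array.

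The rises included PDK4, the kinase that shuts pyruvate out of the mitochondrial oxidation pathway. Its DMSO arrays read 4.74, 4.18 and 4.75 and its 12 h arrays 8.85, 9.62 and 9.73, a change of 4.84 ± 0.28 (limma adjusted p = 8.8e-09), or at least 4.02 from the filter level, below which all its DMSO arrays lay. RBP4, the carrier of retinol in plasma, went from 8.30, 8.95 and 8.80 to 11.35, 11.93 and 12.07, a change of 3.10 ± 0.22 (limma adjusted p = 4e-08), with the lowest treated array again replicate 1. GBP2, a guanylate-binding protein induced by interferon, read 5.31, 5.10 and 5.21 and 8.78, 9.18 and 9.08, a change of 3.81 ± 0.12 (limma adjusted p = 6.6e-11), or at least 3.64, with its DMSO arrays below that level. CSGALNACT1, which starts chondroitin sulfate chains, changed by 3.0 ± 0.14. Each of these probe sets separated the treated from the DMSO arrays completely.

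**Figure D1:**
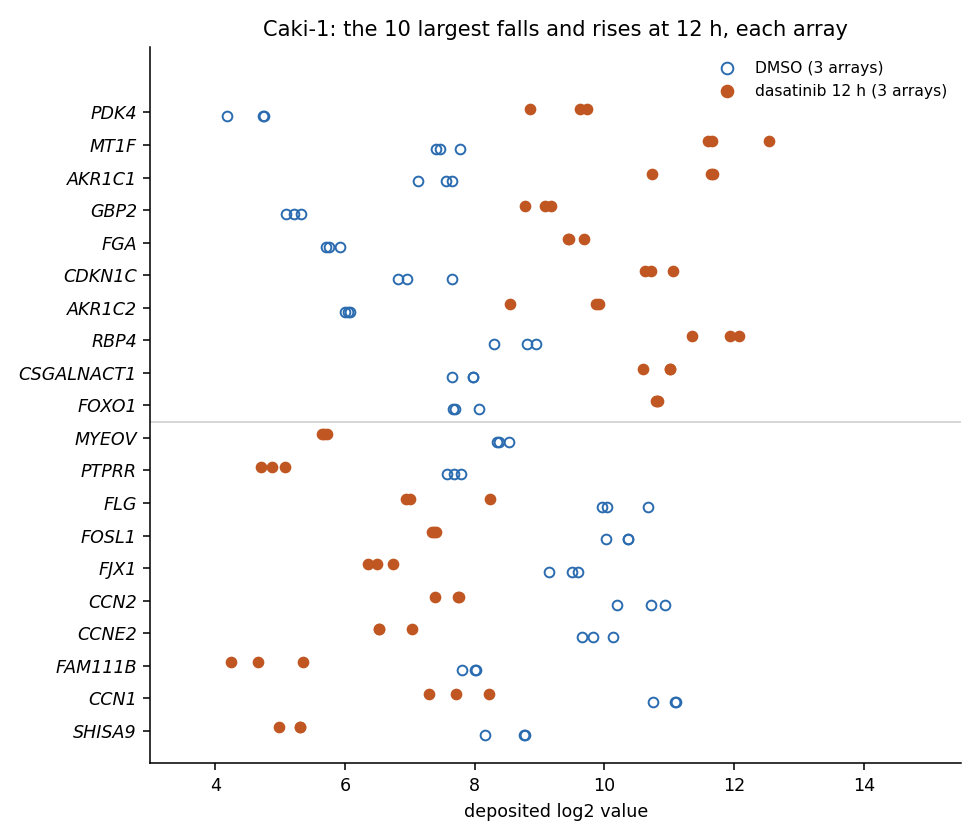
Log2 level of the 10 largest rises and the 10 largest falls at 12 h in every Caki-1 DMSO array and every 12 h array; open blue points are DMSO arrays and filled orange points 12 h arrays. No treated array overlapped the DMSO arrays for any of the 20 genes, and PDK4, whose DMSO arrays lay below the filter level, stands at the top of the rises.

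The genes of the kinases that dasatinib binds were read first. Among 5 tested SRC family kinases none changed: SRC differed by -0.09, YES1 by 0.03, LYN by 0.10, FRK by -0.04 and FGR by 0.13. Of 11 other bound kinases 3 rose and 3 fell. EPHA2, the ephrin receptor of epithelia, stood at 8.92, 9.28 and 9.24 in DMSO and 7.21, 7.41 and 7.43 at 12 h, a change of -1.80 ± 0.11 (limma adjusted p = 1.4e-08), with no overlap. SIK2, a salt-inducible kinase of the LKB1 pathway, moved the other way, from 8.48, 8.48 and 8.42 to 10.02, 10.56 and 10.44, a change of 1.88 ± 0.12 (limma adjusted p = 1.4e-08), and SIK3 rose by 0.83. ABL2 fell by 0.65 on the log2 scale while ABL1 differed by 0.13 (limma adjusted p = 0.20), or rose by 0.22 without 12 h replicate 1 (limma adjusted p = 0.017). Of 11 substrates and adaptors of SRC 6 fell and none rose, among them CAV1, the coat of caveolae, at -0.56, PTPN11, the phosphatase SHP2, at -0.46 and PXN, paxillin, at -0.31.

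In the EGF family, 1 of 3 tested receptor genes rose and none fell. Of 6 ligand genes 4 fell, with NRG1 at -1.40, TGFA at -0.99, HBEGF at -0.63 and EREG at -0.61, while EGF rose by 0.61. Without DMSO replicate 3, HBEGF stood at −0.45 and did not pass the test (limma adjusted p = 0.055). NRG1, the ligand of ERBB3, read 12.22, 11.97 and 11.87 in DMSO and 11.01, 10.46 and 10.40 at 12 h (limma adjusted p = 1.4e-05). ERBB3 itself was at 6.67, 7.09 and 7.12 and 7.45, 8.28 and 8.20, a change of 1.01 ± 0.20 (limma adjusted p = 0.00078). EGFR and ERBB2 did not pass the test, at 0.17 and -0.10. Among 12 other receptor kinases 4 rose, INSR by 0.99, EPHA4 by 0.86, FGFR3 by 0.80 and IGF1R by 0.51, and AXL fell by 0.51. IGFBP3, which binds insulin-like growth factors outside the cell, went from 7.87, 8.43 and 8.43 to 10.32, 10.23 and 10.30, a change of 2.04 ± 0.12 (limma adjusted p = 1.4e-08), and the 2 groups were well separated.

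Genes that ERK signalling controls did not move one way at 12 h. Of 45 tested, 13 rose and 19 fell, with a median of −0.06. CCND1, cyclin D1, fell from 10.21, 10.51 and 10.77 to 7.79, 7.91 and 8.26, a change of -2.51 ± 0.17 (limma adjusted p = 2.8e-08), and FOSL1, the FRA1 subunit of AP-1, fell from 10.03, 10.36 and 10.37 to 7.37, 7.34 and 7.40, a change of -2.88 ± 0.14 (limma adjusted p = 1.8e-09). Both were lower in every treated array. EGR1, a zinc finger factor induced within minutes of ERK activation, moved against them, from 5.49, 6.05 and 6.03 in DMSO to 8.43, 8.28 and 8.31 at 12 h, a change of 2.49 ± 0.14 (limma adjusted p = 6.5e-09). Every treated array lay above every DMSO array.

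The feedback phosphatases of ERK also divided. DUSP6, which is specific for ERK, rose from 8.43, 8.59 and 8.54 to 9.20, 9.87 and 9.95, a change of 1.15 ± 0.18 (limma adjusted p = 8.9e-05). DUSP5, its nuclear counterpart, rose by 1.14 and DUSP1 by 2.09, and no gene of this role other than DUSP4 and DUSP14 fell, the first by 0.40, or by 0.27 without 12 h replicate 1 (limma adjusted p = 0.065), the second by 0.32, or by 0.26 without DMSO replicate 3 (limma adjusted p = 0.052). Of the Sprouty inhibitors, SPRY2 rose by 0.65. SPRY1 fell by 0.43, or by 0.26 without 12 h replicate 1 (limma adjusted p = 0.085), and SPRY4 fell by 0.38, or by 0.26 without the same array (limma adjusted p = 0.17), and lost its call also without 12 h replicate 3, at −0.43, DMSO replicate 1, at −0.38, or DMSO replicate 3, at −0.29. Of 6 ETS factors 5 fell, with ETS2 at -1.16, ETS1 at -0.64, ETV5 at -0.54 and ELK3 at -0.37, and ETV1 rose by 0.72. KLF2, a factor of the same early response, fell from 9.46, 9.36 and 9.37 to 7.93, 7.96 and 8.02, a change of -1.43 ± 0.08 (limma adjusted p = 3.9e-09).

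AP-1 subunits changed in both directions. JUN fell by 1.49 on the log2 scale, from 7.89, 8.34 and 8.29 to 6.79, 6.78 and 6.47 (limma adjusted p = 2.7e-06), while JUNB rose by 0.35 and JUND by 0.39. In the FOS family, FOSL1 was the only one of 4 tested members to fall, and FOSL2 rose by 0.35. FOS rose by 0.22, but lost its call whichever array of these groups was left out, at 0.24 without 12 h replicate 1 (limma adjusted p = 0.063). It also lost it with no filter, other scaling or the replicate block. FOSB did not pass the test at 0.26, but did without 12 h replicate 1, at 0.34 (limma adjusted p = 0.028). ATF3 rose by 0.68, and BATF3 and JDP2, other partners of JUN, fell by 0.52 and 0.45.

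**Figure D2:**
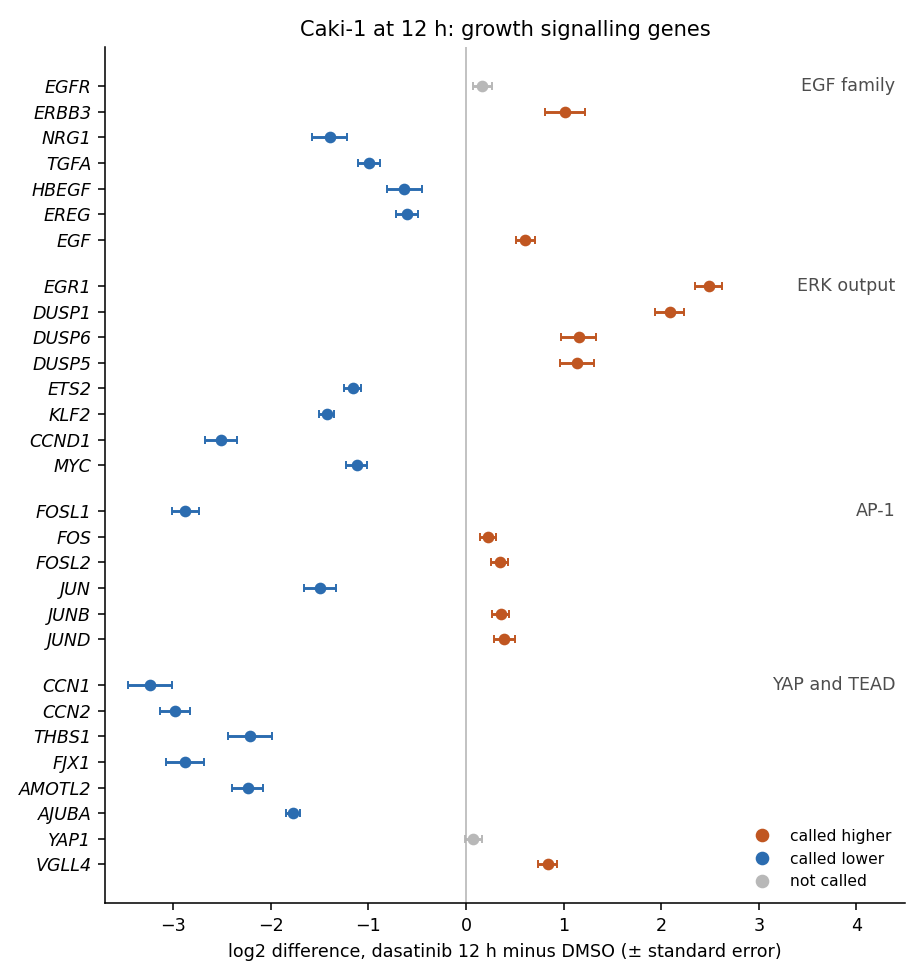
Log2 change at 12 h against DMSO for genes of the EGF family, ERK output, AP-1, and YAP and TEAD, with bars of 1 standard error (n = 3 and 3); orange points were higher and blue points lower at an adjusted p under 0.05, and grey points did not pass. Points lie on both sides of 0 in each of the 4 groups, and EGR1 lies at the high end.

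Targets of YAP and TEAD were mostly lower. Of 9 secreted products 5 fell and 1 rose (median −0.59), and of 18 intracellular targets 11 fell and 1 rose (median −0.44). THBS1, thrombospondin 1, read 12.97, 12.96 and 13.17 in DMSO and 11.40, 10.52 and 10.53 at 12 h, a change of -2.21 ± 0.23 (limma adjusted p = 1.5e-06). AMOTL2, an angiomotin that restrains YAP, read 9.24, 9.80 and 9.90 and 7.69, 7.27 and 7.27, a change of -2.24 ± 0.16 (limma adjusted p = 5.2e-08). FJX1 changed by -2.88 ± 0.20, F3, the tissue factor that starts coagulation, by -2.00 ± 0.23, AJUBA, a LIM protein of adhesion sites, by -1.77 ± 0.07 and BDNF by -1.26 ± 0.15. The treated arrays lay below the DMSO arrays for all 6 of these genes. CCN3, a matricellular relative of CCN1 and CCN2, rose by 0.83. The messages of the factors changed less: YAP1 differed by 0.08 (limma adjusted p = 0.48), WWTR1, which encodes TAZ, fell by 0.66 and TEAD4 by 0.82, and VGLL4, a competitor of YAP for TEAD, rose by 0.84. Of 21 actin and SRF targets 7 rose and 4 fell, where 24.1% of all tested genes rose and 24.4% fell. CNN3 at -0.88 and TPM1 at -0.52 were among the falls and ACTA2 at 1.01 among the rises.

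The core sequence bound by TEAD factors is shown in the CCN2 promoter because CCN2 was among the largest falls and its RefSeq window held 3 matches. The bases run from 200 before the annotated start to the base before it, chr6:131951373-131951572 of GRCh38.p14, minus strand, with each GGAATG or its complement CATTCC in capitals.
CCN2: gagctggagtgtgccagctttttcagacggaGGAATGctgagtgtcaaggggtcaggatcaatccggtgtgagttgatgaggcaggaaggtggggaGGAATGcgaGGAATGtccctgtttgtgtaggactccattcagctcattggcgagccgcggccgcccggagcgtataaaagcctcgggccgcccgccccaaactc
Windows of 300 bases, from 250 before the start to 50 after it, were searched for GGAATG on either strand. Among targets on the array with a promoter entry it was present in 3 of 7 secreted and 4 of 16 intracellular targets. Of these 4, ANKRD1 and PTPN14 were too dim to be tested. The share was 10.96% of the 10134 tested genes that had a promoter entry. A match is a stretch of letters and not a measured binding site.

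In G1 control, most cyclins and their kinases were lower. Of 11 cyclins and kinases 9 fell and 2 rose (median −0.99). CDC25A, the phosphatase that activates CDK2, read 8.66, 9.11 and 9.09 in DMSO and 6.58, 6.58 and 6.62 at 12 h, a change of -2.36 ± 0.14 (limma adjusted p = 1e-08). CCNE1 fell by 1.66, CDK2 by 1.01, CCND3 by 0.99, CDK6 by 0.63 and CDK4 by 0.61. CCNG2, a cyclin of resting cells, rose by 1.56 and CCNG1 by 0.57. SKP2, the F-box protein that sends p27 to the proteasome, went from 7.39, 7.78 and 7.73 to 5.75, 5.42 and 5.69, a change of -2.01 ± 0.16 (limma adjusted p = 1.1e-07), with no overlap. Its substrate CDKN1B, p27, rose from 9.99, 9.82 and 9.89 to 10.71, 10.59 and 10.59, a change of 0.72 ± 0.07 (limma adjusted p = 6.3e-07), and its groups did not overlap. Of 5 tested kinase inhibitors 3 rose, or 2 without 12 h replicate 1, and none fell. CDKN1C, p57, rose by 3.66. CDKN1A, p21, rose by 0.22 (limma adjusted p = 0.024) and did not pass the test without 12 h replicate 1, at 0.19, DMSO replicate 2, at 0.20, or DMSO replicate 3, at 0.15.

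The E2F and retinoblastoma family was lower for 9 of 17 members and higher for 1. The activators E2F1, E2F2 and E2F3 fell by 1.24, 0.96 and 0.54, their partner TFDP1 by 0.96, and the late repressors E2F7 and E2F8 by 1.70 and 1.13. E2F1 read 9.45, 9.06 and 8.81 in DMSO and 7.92, 7.83 and 7.84 at 12 h (limma adjusted p = 1.9e-06). RBL2, the p130 protein that represses cell cycle genes in resting cells, was the member that rose, from 9.72, 9.36 and 9.40 to 10.27, 10.30 and 10.31, a change of 0.80 ± 0.09 (limma adjusted p = 4.7e-06). RB1 differed by -0.01 and did not pass the test.

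Genes of DNA replication fell in every role. Of 81 tested, 71 fell and 1 rose, with a median of −0.90, and the counts were 72 and 2 without replicate 1. In licensing 9 of 10 fell. ORC6, a subunit of the origin recognition complex, read 10.83, 11.05 and 11.23 in DMSO and 9.38, 9.08 and 9.15 at 12 h, a change of -1.84 ± 0.12 (limma adjusted p = 3.2e-08), and ORC4 did not pass the test at -0.15, though it did at −0.26 as the mean of its probe sets (limma adjusted p = 0.011) and at −0.19 with arrays centred on their medians (limma adjusted p = 0.036). Of the 6 subunits of the MCM helicase, which opens the DNA, 5 fell together, MCM3 by 1.44, MCM6 by 1.42, MCM2 by 1.31, MCM4 by 1.14 and MCM7 by 1.13. MCM3 was at 10.78, 10.95 and 10.95 and 9.69, 9.25 and 9.41 (limma adjusted p = 6.2e-08), and in the treated group replicate 1 was the highest. MCM5 stood apart at 5.91, 5.88 and 5.78 in DMSO and 5.93, 5.76 and 5.85 at 12 h, a difference of -0.01 ± 0.10 (limma adjusted p = 0.93), with overlapping arrays. MCM5 had 1 probe set, which lay close to the filter level of 5.379.

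Helicase activation followed with 12 of 14 genes down (median −1.16). CDC45, which completes the active helicase, fell from 8.73, 8.84 and 8.84 to 7.40, 6.65 and 6.52, a change of -1.95 ± 0.18 (limma adjusted p = 6.8e-07). GINS2, a subunit of its partner complex, fell from 9.70, 9.96 and 9.98 to 8.55, 7.96 and 8.04, a change of -1.70 ± 0.14 (limma adjusted p = 2.4e-07). The 12 h arrays of both were below all DMSO arrays. Of 24 polymerase, clamp and fork genes 21 fell, led by CLSPN at -1.96, FEN1, the flap nuclease of Okazaki fragments, at -1.79, POLE2 at -1.65 and TIPIN at -1.55. Of 10 chromatin assembly genes 9 fell, including UHRF1 at −2.07 and HELLS at −2.01, both needed to copy DNA methylation. Of 17 repair and checkpoint genes 15 fell, with EXO1 at -1.91 and BARD1 at -1.33, and CHEK2 rose by 0.37, or by 0.31 without 12 h replicate 2 (limma adjusted p = 0.052).

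Promoters of MCM3 and GINS2 are shown because both genes fell with their complexes and each held an E2F core between 200 bases before the annotated start and the start. The first lies at chr6:52284743-52284942 and the second at chr16:85688955-85689154 of GRCh38.p14 (RefSeq), both on the minus strand. Capitals mark a match to TTTCCCGC, TTTGGCGC, TTTCGCGC or TTTGCCGC on either strand.
MCM3: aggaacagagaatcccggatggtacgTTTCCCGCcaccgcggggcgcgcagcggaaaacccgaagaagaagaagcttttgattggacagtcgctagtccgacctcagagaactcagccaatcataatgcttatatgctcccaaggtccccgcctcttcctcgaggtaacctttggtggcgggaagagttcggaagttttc
GINS2: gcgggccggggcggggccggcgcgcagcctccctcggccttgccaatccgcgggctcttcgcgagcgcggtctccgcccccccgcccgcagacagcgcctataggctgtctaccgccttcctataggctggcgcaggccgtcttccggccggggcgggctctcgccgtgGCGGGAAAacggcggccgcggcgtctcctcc
Such a core was present in the 300-base windows of 25 of the 70 replication genes with a promoter entry, 35.7%, against 5.3% of the tested genes. The element TTTGAA, known as CHR from promoters of mitotic genes, was present in 3 of the 70, 4.3%, against 9.9%.

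Genes of nucleotide supply were mostly lower. Of 35 genes 27 fell and 3 rose. In pyrimidine synthesis 4 of 5 fell: CTPS1, which makes CTP, by 1.86, UMPS by 1.20, CAD by 1.05 and DHODH by 0.69. Of 12 purine genes 11 fell, led by PPAT, the entry enzyme, at -1.40 and GART at -1.19. RRM2, the ribonucleotide reductase subunit made in S phase, read 11.66, 12.14 and 12.31 in DMSO and 10.69, 10.35 and 10.34 at 12 h, a change of -1.57 ± 0.16 (limma adjusted p = 1.9e-06). TK1, thymidine kinase, which is also made in S phase, read 12.53, 12.54 and 12.39 in DMSO and 12.37, 12.33 and 12.28 at 12 h, a difference of -0.16 ± 0.05 that did not pass without DMSO replicate 2, at −0.13, or 12 h replicate 3, at −0.14.

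**Figure D3:**
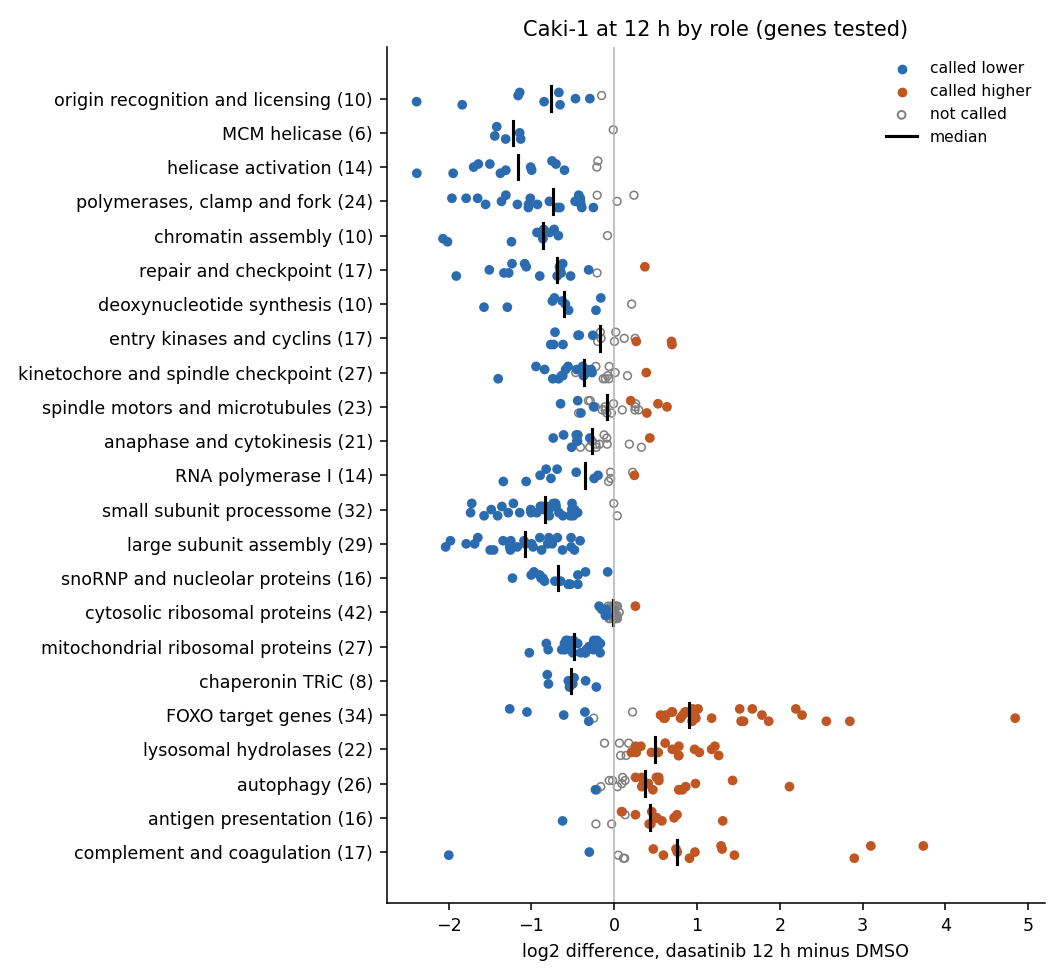
Log2 change at 12 h against DMSO of every tested member in roles of the cell cycle, ribosome production, folding, stress and lysosome lists; each point is a gene, filled where the adjusted p was under 0.05 (blue lower, orange higher), and the black bar is the median of the role. Replication and ribosome assembly lie below 0 and cytosolic ribosomal proteins at 0, and mitotic roles spread across it.

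More mitotic genes fell than rose at 12 h, where 24.4% of all tested genes fell and 24.1% rose. Of 88 tested without histones, 34 fell and 9 rose, with a median of −0.24. Without replicate 1 the counts were 46 and 4. The falls included CENPK at -1.40 and MAD2L1, a spindle checkpoint protein, at -0.95 in the kinetochore role, where 15 of 27 fell. In the spindle role 4 of 23 fell and 4 rose. KIF20A, a kinesin of cytokinesis, read 10.14, 9.51 and 9.59 in DMSO and 10.75, 10.27 and 10.14 at 12 h, a change of 0.64 ± 0.19 (limma adjusted p = 0.013). The lowest treated array equalled the highest DMSO array, and without 12 h replicate 1 the change was 0.46 (limma adjusted p = 0.061). CDC25C, the phosphatase that activates CDK1, was at 8.49, 8.01 and 7.97 and 9.12, 8.85 and 8.57, a change of 0.69 ± 0.18 (limma adjusted p = 0.0053), and ASPM, a spindle pole protein, at 11.40, 10.97 and 11.02 and 11.73, 11.48 and 11.36, a change of 0.39 ± 0.14 (limma adjusted p = 0.027), or 0.29 without 12 h replicate 1 (limma adjusted p = 0.11). The arrays of ASPM overlapped and those of CDC25C did not. DLGAP5, which stabilises spindle fibres but is not among the 88 genes, did not pass the test, at 10.40, 9.98 and 9.96 and 10.61, 10.14 and 10.06 (limma adjusted p = 0.55).

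Promoters of DLGAP5 and ASPM are shown as those of mitotic genes that did not fall at 12 h. They lie at chr14:55191586-55191785 and chr1:197146670-197146869, minus strand, GRCh38.p14 (RefSeq), and capitals mark TTTGAA or its complement TTCAAA.
DLGAP5: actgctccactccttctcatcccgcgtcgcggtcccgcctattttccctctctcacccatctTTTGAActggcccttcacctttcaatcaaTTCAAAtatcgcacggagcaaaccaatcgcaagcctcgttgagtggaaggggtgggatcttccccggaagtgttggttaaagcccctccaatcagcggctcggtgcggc
ASPM: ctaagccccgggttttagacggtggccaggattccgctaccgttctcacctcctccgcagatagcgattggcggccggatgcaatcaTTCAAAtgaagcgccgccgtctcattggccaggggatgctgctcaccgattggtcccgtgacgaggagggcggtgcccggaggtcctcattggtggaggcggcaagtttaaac
This element was present in 48 of the 74 listed mitotic genes with a promoter entry, 64.9%, against 9.9% of the tested genes. An E2F core was present in 7 of them, 9.5%, against 5.3%. DLGAP5 is not among these 74.

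Histone genes divided. H2BC5, H2AC6, H2BC21 and H1-2 rose by 1.40, 1.30, 0.63 and 0.59, and H2AX, H2AZ1, H4C3 and H3-3B fell by 0.67, 0.30, 0.27 and 0.23. Histone genes resemble each other in sequence, so a probe set may read more than 1 of them.

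Genes that assemble ribosomes fell almost without exception, and ribosomal proteins did not. Of 77 factors of the small subunit processome, large subunit assembly and small nucleolar particles, 75 fell and none rose (median −0.87). Of 42 cytosolic ribosomal proteins 5 fell and 1 rose, with a median of −0.01. Their DMSO means ran from 12.57 to 14.74, and the highest value on any array was 15.19. In the large subunit role 29 of 29 fell. NOP16 went from 10.97, 11.43 and 11.39 to 9.05, 9.26 and 9.37, a change of -2.04 ± 0.13 (limma adjusted p = 2.2e-08), NOC3L changed by -1.98 ± 0.12 and MRTO4 by -1.69 ± 0.09. In the small subunit role 30 of 32 fell. UTP15, which helps RNA polymerase I transcribe and process the precursor, went from 8.38, 8.83 and 9.07 to 7.21, 6.98 and 6.93, a change of -1.72 ± 0.16 (limma adjusted p = 7.7e-07). All treated arrays of these genes lay below all DMSO arrays.

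Among the polymerases that make ribosomal and transfer RNA, 9 of 14 genes of RNA polymerase I fell and 1 rose, and 7 of 12 of RNA polymerase III fell and 2 rose. POLR1A, the largest subunit of the first, fell by 1.34, with POLR1F at −1.06, POLR1C at −0.90 and POLR1B at −0.76, and its factor TAF1D rose by 0.24. The call for TAF1D was lost without 12 h replicate 3, at 0.22, DMSO replicate 1, at 0.20, or DMSO replicate 2, at 0.24. RNA polymerase III exists in 2 forms that carry either POLR3G or POLR3GL. POLR3G, the form of proliferating cells, fell from 8.10, 8.35 and 8.66 to 6.04, 5.96 and 5.92, a change of -2.40 ± 0.18 (limma adjusted p = 6.7e-08). POLR3GL rose from 8.95, 8.90 and 9.06 to 9.59, 9.53 and 9.49, a change of 0.57 ± 0.12 (limma adjusted p = 0.00081), and MAF1, the repressor of this polymerase, rose by 0.30. Neither pair of groups overlapped for the 2 alternative subunits.

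MYC, which drives ribosome production, fell from 11.89, 12.03 and 12.06 to 10.68, 10.92 and 11.03, a change of -1.12 ± 0.11 (limma adjusted p = 8.7e-07). Its antagonists MXD4, MXI1 and MXD3, which compete for the partner MAX, rose by 1.68, 1.12 and 0.84, and MAX itself differed by -0.11 (limma adjusted p = 0.35). MXD4 read 7.25, 7.23 and 6.95 in DMSO and 8.80, 8.79 and 8.88 at 12 h, with no overlap. ODC1, the first enzyme of polyamine synthesis, fell from 10.68, 10.89 and 11.06 to 9.59, 9.31 and 9.39, a change of -1.44 ± 0.10 (limma adjusted p = 3.8e-08), and SRM, spermidine synthase, by 0.96. SAT1, which acetylates polyamines for export, rose by 1.30 and SMOX, which oxidises spermine, by 0.97. SLC2A1, the main glucose carrier, fell by 1.37.

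The UTP20 promoter is shown because UTP20 had the largest fall of the small subunit role, -1.74 ± 0.13, and its window held the palindrome CACGTG, the E-box bound by MYC and MAX and related factors. It lies at chr12:101279905-101280104, plus strand, GRCh38.p14 (RefSeq), with the palindrome in capitals.
UTP20: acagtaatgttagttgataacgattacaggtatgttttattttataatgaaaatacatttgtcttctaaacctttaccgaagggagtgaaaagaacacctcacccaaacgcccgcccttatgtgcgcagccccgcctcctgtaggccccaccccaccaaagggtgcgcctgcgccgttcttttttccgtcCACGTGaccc
The palindrome was present in 14 of 29 small subunit genes with a promoter entry, 48.3%, in 8 of 23 large subunit genes, 34.8%, in 2 of 34 cytosolic ribosomal protein genes, 5.9%, and in 10.05% of the tested genes.

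Translation, folding and the mitochondrial ribosome fell with assembly. Of 15 initiation factors 12 fell, led by EIF2S1, the regulated subunit of eIF2, at -1.24, EIF1AX at -1.01, EIF2B3 at -0.94 and EIF4E, the cap-binding protein, at -0.91. Of 19 cytosolic tRNA synthetases 14 fell, FARSB most, at -1.42, and QARS1 rose by 0.37. The 8 subunits of the chaperonin TRiC, which folds actin and tubulin, all fell, CCT5 most, at -0.81. The 27 mitochondrial ribosomal proteins also all fell, with MRPL12 at -1.03 and MRPS12 at -0.82 (median −0.49). Subunits of oxidative phosphorylation did not follow, with 9 up and 8 down of 29 and a median of −0.04. Of 13 heat shock proteins 11 fell, including CHORDC1 by 1.25 and BAG2 by 1.12.

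FOXO factors and their targets rose. Of 34 target genes 27 rose and 5 fell, with a median of 0.91. FOXO1 went from 8.06, 7.70 and 7.66 in DMSO to 10.80, 10.83 and 10.82 at 12 h, a change of 3.0 ± 0.09 (limma adjusted p = 3.1e-11), and FOXO4 and FOXO3 rose by 0.57 and 0.46. KLHL24, a ubiquitin ligase adaptor, rose from 7.55, 6.76 and 6.48 to 9.57, 9.88 and 9.87, a change of 2.85 ± 0.19 (limma adjusted p = 3.2e-08), and ARRDC3, an arrestin that lowers receptors at the surface, from 7.29, 6.69 and 6.90 to 9.34, 9.65 and 9.58, a change of 2.56 ± 0.15 (limma adjusted p = 1e-08). The DMSO arrays of all 3 genes stayed below the treated arrays. BTG1, which slows proliferation, rose by 2.27. The targets that fell included IRS1 by 1.26 and GADD45B by 1.05. IRS1 relays insulin receptor signals, and INSR rose by 0.99. The FOXO core GTAAACA was present in 6 of 34 promoters of targets on the array, 17.6%, against 2.3% of the tested genes. These 34 included targets too dim to be tested, so they are not the same set as the 34 tested targets. Of 15 BCL2 family genes the pro-apoptotic BCL2L11, BMF and BBC3 rose by 0.94, 0.76 and 0.60, and 6 fell, among them the protective BCL2 by 1.05 and BCL2L1 by 0.92 and the pro-apoptotic PMAIP1 by 0.78.

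Detoxification genes rose unevenly. In the aldo-keto and quinone reductase role 7 of 8 rose. AKR1C2, which reduces steroids, went from 6.08, 6.00 and 6.04 to 8.55, 9.91 and 9.87, a change of 3.40 ± 0.37 (limma adjusted p = 2.6e-06), and AKR1C3 from 11.04, 10.97 and 10.78 to 13.01, 13.15 and 13.08, a change of 2.15 ± 0.09 (limma adjusted p = 8.3e-10). In both, replicate 1 was the lowest treated array. AKR1C genes are close copies, so their probe sets may read each other. NQO1 rose by 0.82 and HMOX1, haem oxygenase, by 1.53. The other targets of NRF2 did not all share this: GCLM, a subunit of the enzyme that makes glutathione, differed by -0.14 (limma adjusted p = 0.35), and without 12 h replicate 1 it was lower, at −0.30 (limma adjusted p = 0.0081). NFE2L2, which encodes NRF2, rose by 0.85, TFRC, the transferrin receptor, fell by 0.67 and SLC40A1, the iron exporter, rose by 1.07.

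Metallothioneins are small proteins that bind zinc and copper. Of 12 tested genes of metallothioneins and zinc transport 9 rose and 1 fell (median 0.74), or 8 and 1 without 12 h replicate 1. MT1G read 7.90, 7.52 and 7.45 in DMSO and 11.49, 8.96 and 9.19 at 12 h, a change of 2.26 ± 0.55 (limma adjusted p = 0.0032) or 1.46 without replicate 1 (limma adjusted p = 0.007), and MT1X 10.26, 10.34 and 10.34 and 12.38, 11.38 and 11.44, a change of 1.42 ± 0.20 (limma adjusted p = 3.5e-05). Both groups lay apart for each gene, and replicate 1 was the highest treated array. SLC30A1, the zinc exporter, rose by 0.59. The isoforms are close copies and probe sets may read more than 1. The MT1X promoter is shown because it held 4 metal response cores, TGCACNC or TGCGCNC on either strand, in capitals. It lies at chr16:56682270-56682469, plus strand, GRCh38.p14 (RefSeq).
MT1X: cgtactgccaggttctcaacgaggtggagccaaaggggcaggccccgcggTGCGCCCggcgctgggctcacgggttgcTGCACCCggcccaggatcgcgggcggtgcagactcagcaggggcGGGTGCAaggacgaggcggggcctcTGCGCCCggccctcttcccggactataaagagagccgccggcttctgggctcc
The core was present in 5 of 8 promoters of this role and in 38.3% of the tested genes.

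Lysosome and autophagy genes rose by small amounts. Of 76 tested, 50 rose and 6 fell, with a median of 0.33. Of 22 hydrolases 16 rose, CTSK by 1.26, CTSF by 1.22, CTSO by 1.18 and MANBA, a mannosidase, by 1.03, and none fell. GABARAPL1, which coats the growing autophagosome, went from 8.31, 7.92 and 7.93 to 9.97, 10.31 and 10.23, a change of 2.12 ± 0.11 (limma adjusted p = 3.3e-09), and OPTN, an adaptor for selective autophagy, rose by 0.98. TMEM192, a protein of the lysosomal membrane, fell by 0.88. Among the regulators of the MiT and TFE factors, FLCN, FNIP1 and RRAGC rose by 0.43, 0.55 and 0.58, and FNIP2 fell by 0.57.

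Of 16 genes of fatty acid synthesis and oxidation 7 rose and 5 fell, with a median of −0.004. PPARGC1A, a coactivator of mitochondrial and fasting genes, went from 5.34, 4.87 and 4.85 to 6.76, 7.42 and 7.37, a change of 2.16 ± 0.18 (limma adjusted p = 2.2e-07), or at least 1.81, with its DMSO arrays below the filter level. PLIN2, which coats lipid droplets, rose by 1.65, PPARA by 1.28 and CPT1A, which admits fatty acids to mitochondria, by 0.95. SCD, ACACA and FASN, enzymes that make and desaturate fatty acids, were lower, at −0.98, −0.82 and −0.75. SCD did not pass the test without 12 h replicate 1, at −0.54, DMSO replicate 2, at −0.89, or DMSO replicate 3, at −0.91. Among 22 glycolysis and HIF targets 6 rose and 1 fell: NDRG1 went from 9.21, 8.50 and 8.33 to 10.92, 11.72 and 11.72, a change of 2.78 ± 0.22 (limma adjusted p = 1e-07), CA12, a carbonic anhydrase, rose by 1.93 and BNIP3L by 1.04, and ENO1 fell by 0.36. VEGFA differed by 0.12 (limma adjusted p = 0.49). DDIT4, an inhibitor of mTORC1, rose by 1.93.

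Immune and secreted genes rose in several roles. Of 17 genes listed under complement and coagulation 12 rose and 2 fell (median 0.76). This list also held the retinol carrier RBP4, which belongs to neither system and is 1 of the rises. FGA, a chain of fibrinogen, read 5.75, 5.70 and 5.92 in DMSO and 9.68, 9.44 and 9.45 at 12 h, a change of 3.73 ± 0.16 (limma adjusted p = 5.3e-10), and FGB 9.12, 8.64 and 8.64 and 11.90, 11.61 and 11.58, a change of 2.90 ± 0.22 (limma adjusted p = 6.9e-08). C1S, CLU and CFI rose by 1.45, 1.30 and 1.29. Of 16 antigen presentation genes 11 rose, NLRC5, the activator of class I genes, by 1.31, HLA-F by 0.76 and HLA-E by 0.72, and TAP2 fell by 0.62. HLA genes are alike in sequence, so single members are uncertain. Of 26 interferon-stimulated genes 16 rose and none fell, IFITM1 by 1.27 and ISG20 by 1.21. Of 19 genes listed under interleukins and chemokines 5 rose and 4 fell, with IL6 at 0.79 and IL1A at -0.80. The list also held TNFAIP6, which is neither and rose by 1.56. BCL3 and PTGS2 of the NF-kB role rose by 1.25 and 1.21.

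Adhesion genes changed in both directions. CDH1, E-cadherin, went from 5.02, 5.73 and 5.79 in DMSO to 6.31, 8.44 and 8.73 at 12 h, a change of 2.31 ± 0.49 (limma adjusted p = 0.0012), and SNAI2, which represses it, fell from 8.17, 8.09 and 8.04 to 7.46, 6.78 and 6.68, a change of -1.13 ± 0.23 (limma adjusted p = 0.00074). SNAI1, another repressor, rose by 1.02, and VIM and CDH2 did not pass the test at -0.04 and -0.11. As the mean of its probe sets CDH2 was lower, at −0.23 (limma adjusted p = 0.009). CLDN2, a pore-forming claudin of the proximal tubule, rose by 1.40 and CLDN11 fell by 1.68. ITGA6 and ITGA3, laminin-binding integrin chains, fell by 1.15 and 0.70. Of 23 collagens, laminins and matrix genes 10 rose and 3 fell, with COL7A1, of anchoring fibrils, at 1.03 and COL8A1 at -0.83. The fibroblast and pericyte markers LUM, DCN, ACTA2 and COL1A1 rose with them, by 2.36, 1.83, 1.01 and 0.45. PDGFRB and RGS5 did not pass the test, at -0.02 and 0.19, and THY1 and COL3A1 were below the filter. COL1A1 did not pass the test without 12 h replicate 2, at 0.43, 12 h replicate 3, at 0.34, or DMSO replicate 1, at 0.33. Their part in the matrix counts was not tested. ID1, ID2 and ID3, targets of BMP signals, rose by 1.09, 1.16 and 1.14, and NOG, a BMP inhibitor, fell by 1.41.

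Of 8 renal lineage factors 5 rose and 1 fell. IRX3, a factor of nephron segments, read 6.78, 6.53 and 6.62 in DMSO and 8.33, 8.14 and 8.16 at 12 h, a change of 1.57 ± 0.10 (limma adjusted p = 1.4e-08), GATA3, of the collecting duct, rose by 1.00, and LHX1, of the early nephron, fell by 1.42. Among 12 proximal tubule genes 4 rose, with CA2, a carbonic anhydrase, at 0.72. In 11 carcinoma markers NNMT and ALDH1A1 rose by 0.85 and 0.87, and CD70, KRT18 and KRT8 fell by 0.88, 0.64 and 0.59.

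Against 6 h, in which no DMSO array takes part, 12 h was higher for 1547 genes, 12.5% of those tested, and lower for 1796, 14.5%. Without replicate 1 at 12 h the counts were 1876 and 1936, without replicate 2 the higher count was 985 and without replicate 3 it was 970. Of the 81 replication genes 74 fell in this interval and 1 rose. CDC45 read 8.34, 8.79 and 8.56 at 6 h and 7.40, 6.65 and 6.52 at 12 h, a change of -1.71 ± 0.18 (limma adjusted p = 2.2e-05), and CLSPN 7.01, 6.70 and 6.74 and 5.88, 5.03 and 4.68, a change of -1.62 ± 0.25 (limma adjusted p = 0.0003). HELLS and FAM111B also stood among the 5 largest falls, at -1.56 and -1.83, and the 12 h means of CLSPN and FAM111B lay below the filter level. Of the 88 mitotic genes 41 fell and none rose, or 58 and none without replicate 1. Of the 77 ribosome assembly factors 52 fell and none rose. Of 34 FOXO targets 17 rose and none fell, the highest TNFSF10, a death ligand, at 1.51. AKR1C2 and RBP4 continued upward, by 1.76 and 1.92 and ANXA13 by 1.54.

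Some genes whose 6 h arrays already lay away from DMSO did not pass the test in this interval or turned back. EPHA2 read 7.27, 7.42 and 7.13 at 6 h and 7.21, 7.41 and 7.43 at 12 h, a difference of 0.08 ± 0.11 (limma adjusted p = 0.64), and the arrays overlapped. MYC differed by 0.01. CCN2 was higher at 12 h than at 6 h, by 0.62 ± 0.16 (limma adjusted p = 0.0088), or by 0.38 as the mean of its probe sets (limma adjusted p = 0.13). SLC7A11, the cystine carrier, was lower at 12 h than at 6 h, a change of -1.24 ± 0.20 (limma adjusted p = 0.00053), with 6 h arrays at 9.37, 10.39 and 10.34 and 12 h arrays at 9.0, 8.72 and 8.66. GCLM fell in the same interval, by 1.18.

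Against 12 h, 24 h was higher for 1359 genes, 10.9% of those tested, and lower for 1769, 14.2%. Without replicate 1 at 12 h the counts were 817 and 1376. The mitotic genes fell here: 85 of 88 were lower and none higher, with a median of −1.94. KIF20A read 7.81, 7.58 and 7.67 at 24 h, a change of -2.70 ± 0.19 from 12 h (limma adjusted p = 1.4e-07). DLGAP5, which is not among the 88, read 7.80, 7.23 and 7.56, a change of -2.74 ± 0.21 (limma adjusted p = 2.1e-07). SPC25, KIF14 and DEPDC1B also fell, at -2.79, -2.74 and -2.86. No 24 h array reached a 12 h array for these 5 genes. Replication genes fell further, 71 of 81, while ribosome assembly factors fell in 27 of 77. MCM5 differed by -0.11 (limma adjusted p = 0.46). The rises after 12 h were led by DEFB1, a defensin of the kidney tubule, at 1.85 ± 0.28, CFI at 1.61 ± 0.30, MATN2 at 1.38 ± 0.22, CAMP at 1.31 ± 0.18 and CTSF at 1.29 ± 0.24. JUN recovered by 0.90 and CCND1 by 0.70.

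**Figure D4:**
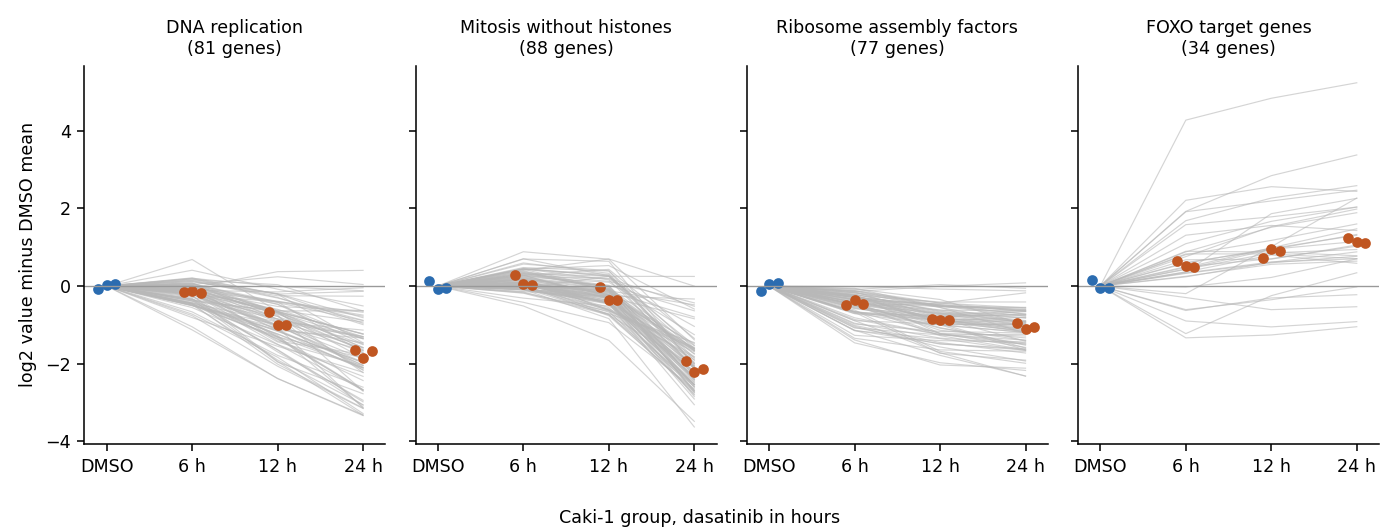
Log2 value minus the gene's DMSO mean, by group, for 4 lists in Caki-1; grey lines join the group means of single genes, and each coloured point is the median over the list in 1 array (blue DMSO, orange dasatinib). Replication reached −0.66, −1.0 and −1.0 at 12 h and −1.65 to −1.86 at 24 h, and mitosis stood at −0.02, −0.35 and −0.35 at 12 h and −1.94 to −2.23 at 24 h.

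The 12 h change in Caki-1 was set against that in 769-P by a test of the difference over 24 arrays. It was higher in Caki-1 for 1115 genes, 8.67% of the 12864 tested, and lower for 1319, 10.3%. Of 81 replication genes the change was higher in Caki-1 for 5 and lower for 11, of 88 mitotic genes for 0 and 2, and of 77 ribosome assembly factors for 3 and 9. Of 45 ERK output genes it was higher for 25 and lower for 3. MYC fell by 1.12 in Caki-1 and changed by -2.80 in 769-P, a difference of 1.68 ± 0.21 (limma adjusted p = 3e-06). EGR1 rose in Caki-1 and changed by -0.03 in 769-P, a difference of 2.52 ± 0.25 (limma adjusted p = 8.1e-08). ETV5 and SPRED2 differed by 2.11 and 1.46, with changes of -2.65 and -1.49 in 769-P.

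The genes with the widest line difference whose Caki-1 arrays did not overlap included PDK4, which changed by 1.18 in 769-P, with arrays at 4.18, 4.56 and 4.75 in DMSO and 4.98, 6.08 and 5.98 at 12 h, a difference of 3.66 ± 0.46 (limma adjusted p = 2.5e-06). In both lines the DMSO arrays of PDK4 lay below the filter level, as did the 769-P array at 4.98, so these sizes are not exact. FGA and RBP4 changed by 0.24 and 0.11 in 769-P, differences of 3.49 ± 0.24 and 2.99 ± 0.28. FOXO1 rose by 3.0 in Caki-1 and changed by 0.67 in 769-P, a difference of 2.34 ± 0.13 (limma adjusted p = 9.3e-12). On the other side ERBB3 rose by 1.01 in Caki-1 and by 3.66 in 769-P, a difference of -2.65 ± 0.45 (limma adjusted p = 0.00013). FLG, EMP1 and KCNH1 fell in Caki-1 and changed by 0.18, 0.04 and 0.91 in 769-P, differences of -3.02, -2.40 and -2.66. SORBS2 changed by 0.26 in Caki-1 and 3.07 in 769-P, a difference of -2.81. CDH1 differed by 2.07 ± 0.58 (limma adjusted p = 0.013), with 769-P arrays at 4.23, 4.32 and 4.07 in DMSO and 4.5, 3.98 and 4.85 at 12 h. Without Caki-1 12 h replicate 3 it was 1.62 (limma adjusted p = 0.055). CDH1, FGA, RBP4, FLG and EMP1 lay below the 769-P filter level of 5.361 in all 6 of its DMSO and 12 h arrays, so no change could be read in that line. This held for both 769-P group means in 125 of the 2434 genes that differed, and for both Caki-1 means in 126.

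**Figure D5:**
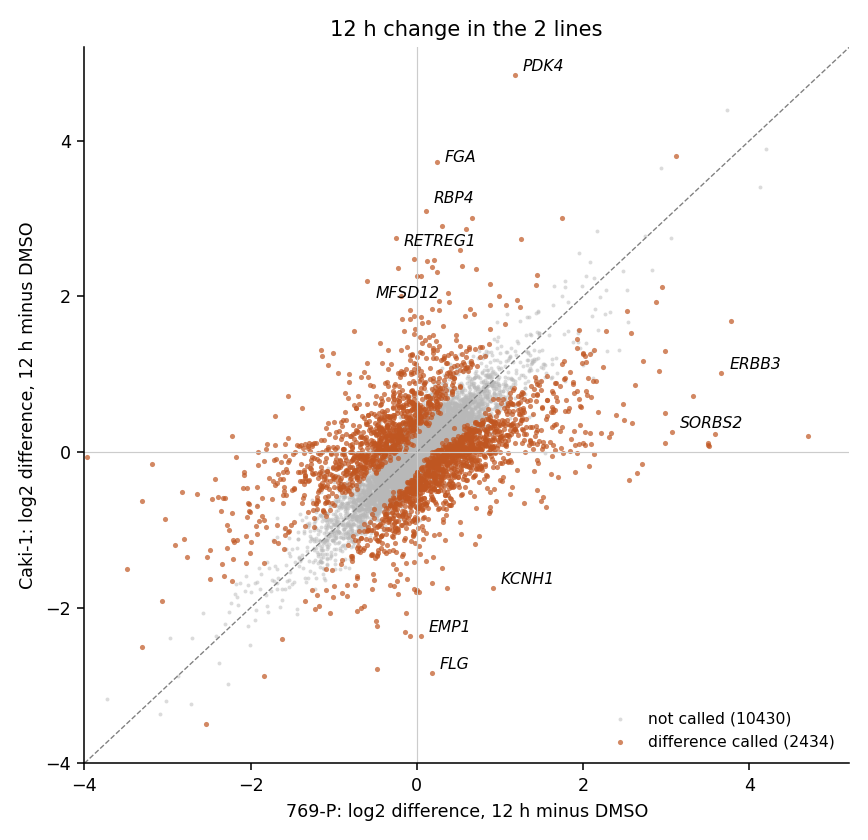
Log2 change at 12 h against DMSO in 769-P (horizontal) and Caki-1 (vertical) for every gene tested in the line difference; orange points passed an adjusted p under 0.05 for the difference, grey points did not, and the dashed diagonal marks equal change. PDK4, FGA and RBP4 lie above the diagonal, and ERBB3, SORBS2 and FLG lie below it.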

How the data were processed

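RNA from Caki-1 and 769-P cells was read on 24 PrimeView arrays, with 49395 probe sets of which 102 were array controls. The deposited values were already summarised, on a log2 scale that no label states but that their range, 2.80 to 15.19, and near-equal array medians fit. The authors used MAS5, per the submitters' processing notes. Version, settings and the step that levelled the arrays are not given in the sources used here. Scanner values were not used, so signal above background could not be checked probe by probe.

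Of the probe sets, 44988 carried 1 gene symbol, 1832 several and 2473 no entry in the platform annotation. Only the first were named, and symbols were updated through Entrez identifiers for 18112 of 18132 genes. A gene was represented by its probe set with the highest mean over all arrays. Genes whose mean over the 12 arrays of a line lay above the 40th percentile of all probe sets were tested, a level of 5.379 in Caki-1 and 5.361 in 769-P, and a gene above it in either line was tested for the line difference. Groups were taken from the sample titles. Group means were fitted in limma 3.58.1 (R 4.3.3) with an intensity trend over the 12 arrays of Caki-1, or 24 for the line difference, and p-values were adjusted by Benjamini-Hochberg at 0.05. The procedure was tested on simulated data. No arrays held identical values.

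Replicate numbers are shared by the groups. Deviations from group means correlated between equal numbers at 0.256, 0.134 and 0.164 for 12 h and 6 h. All were over 0.1, the level set for pairing, which is a property of the data and not of a stated design. They correlated at 0.168, 0.093 and −0.031 for 12 h and DMSO, at 0.354, 0.066 and 0.150 for 24 h and 12 h and at 0.253, 0.055 and 0.278 in 769-P. None of these sets passed that level throughout. The fits in the Results hold no replicate block, so they used no pairing, also for 12 h against 6 h. With the block, 12 h against 6 h gave 1820 genes higher and 2007 lower.

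The comparison, gene lists and roles were chosen with earlier results of these data known. Named genes were the largest changes with arrays that did not overlap, up to 4 called members of each role and up to 2 against its majority, any member of a small role, and a set of kinases, signalling targets and markers listed by name. ASPM, BBC3, C1S, CLU, CPT1A, E2F2, E2F3, FASN, GCLM, RB1 and TNFSF10 were named after their values were seen. Alternatives covered the filter, probe sets, scaling, variance model, arrays in the fit, block and each array left out. Counts of lists without 12 h replicate 1 were added after seeing the data. Promoter windows of 300 bases were available for 27305 genes. Motif counts of a role or list covered its members on the array, also those too dim to be tested. The shares beside them covered tested genes only.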

Additional observations from a re-analysis of the deposited data

Results flagged for a closer look

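The response at 12 h differed between the 2 lines by the test of the difference itself, over 24 arrays, for 1115 genes higher and 1319 genes lower in Caki-1 than in 769-P. The genes named above that passed this test are given here by their difference, Caki-1 minus 769-P, on the log2 scale. Among genes whose change was higher in Caki-1, the metabolic kinase PDK4 differed by 3.66, fibrinogen chain FGA by 3.49, the retinol carrier RBP4 by 2.99 and the transcription factor FOXO1 by 2.34. ERK output genes on this side were EGR1 at 2.52, ETV5 at 2.11 and SPRED2 at 1.46, beside MYC at 1.68 and CDH1, E-cadherin, at 2.07. On the other side lay FLG at −3.02, the actin-binding protein SORBS2 at −2.81, the potassium channel KCNH1 at −2.66, the receptor ERBB3 at −2.65 and the membrane protein EMP1 at −2.40. FGA, RBP4, CDH1, FLG and EMP1 lay below the filter level in all 6 of the 769-P arrays, so no change could be read there. The DMSO arrays of PDK4 lay below the filter level in both lines, so its difference has no exact size. Line, and whatever else differed between the cultures of the lines, cannot be told apart. No group had more than 3 arrays, so no single array could be tested as standing apart within its group.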

How the results depend on the processing

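The 12 h counts against DMSO kept within 1.5 times under every alternative, at 2614 to 3201 higher and 2805 to 3271 lower over changes of filter, probe sets, scaling, variance model, fit and block, and at 2498 to 2982 and 2649 to 2992 with 1 array left out. Genes at least 2-fold higher and lower numbered 336 and 425, and 200 and 279 with each gene as the mean of its probe sets. Among counts past the threshold, those that moved further came from leaving out 1 array: against 6 h the higher genes ran from 970 to 1876, with 985 and 970 without 12 h replicates 2 and 3, and for 24 h against 12 h they ran from 817 to 1231, with 817 without 12 h replicate 1. These fits hold fewer arrays. With the replicate block the counts were 3150 higher and 3185 lower against DMSO, 1820 and 2007 against 6 h, 1631 and 1948 for 24 h against 12 h, and 1356 and 1630 for the line difference. The line difference ran from 895 to 1201 higher and 1040 to 1396 lower with 1 array left out.

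Of 258 genes named as changed at 12 h, 239 passed under each of the 16 alternatives, and 19 lost the call under at least 1: ANPEP, ASPM, CDKN1A, CHEK2, COL1A1, DUSP14, DUSP4, FOS, HBEGF, KIF20A, MATN2, PAX2, SCD, SLC7A11, SPRY1, SPRY4, SRF, TAF1D and TK1. Of the other named genes 7 gained a call under at least 1: ABL1, CAMP, CDH2, DEPDC1B, FOSB, GCLM and ORC4. No alternative reversed a named gene that had passed. Without DMSO replicate 3 ANPEP stood at 0.21, without 12 h replicate 2 PAX2 stood at 0.29, and as the mean of its probe sets SRF stood at −0.09. The number of arrays, 3 in a group, limits the precision of every value, and signal over background was not checked for single probe sets. In the line difference CDH1 lost its call without Caki-1 12 h replicate 3.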
